A study of Mus musculus with 9 samples.

Results

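The genes of glycolysis and of the response to hypoxia were examined in AML12 cells, a hepatocyte line from mouse liver, in which *Srrm2*, the gene of a scaffold protein of nuclear speckles, had been targeted by RNA interference. The set holds 38 genes taken by symbol, 15 of them enzymes from hexokinase to lactate dehydrogenase and the others regulators of glycolytic flux, parts of the oxygen-sensing pathway and targets of hypoxia-inducible factors. Symbols were matched to the gene identifiers of GENCODE M1, and 37 of the 38 genes were found among the 13259 genes in both deposited tables. *Lox*, which encodes a collagen cross-linking enzyme, is listed in neither table and is not described further.

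RNA was sequenced from 9 libraries of AML12 cells, 3 labelled as control, 3 with Srrm2 shRNA 1 and 3 with Srrm2 shRNA 2. The *Srrm2* hairpins were delivered by lentivirus for 5 days, and all cells were grown in medium with serum, insulin, transferrin, selenium and dexamethasone. AML12 is a single immortalized line, so the libraries sample cultures and not animals. Oxygen tension was not a variable of the study, and no group was hypoxic by its label.

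Each table gives 1 mean normalized count per gene, which pools the control libraries with the 3 libraries of 1 hairpin. The labels tie all 3 control libraries to the table of shRNA 1 but only replicate 1 by name to the table of shRNA 2, and it was assumed that both means cover the same 3 controls, 6 libraries in each. These means are the only values used here. The tables hold no value of a single library, so the level in each replicate, the spread between replicates and the sequencing depth are unknown, and no difference below was tested. The means of the table of shRNA 1 sum to 6144608 over 13424 genes, and those of the table of shRNA 2 to 6393456 over 13478 genes. Because control libraries are in both means, the tables are not independent measurements. The authors' own comparisons of each hairpin with the control were not used, and therefore a change from control to knockdown is not given for any gene, including *Srrm2* itself (authors' means of 3428 and 3759), whose knockdown a mean over both groups cannot show.

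The labelled cell type was checked against its markers. All 12 hepatocyte markers were listed, led by the keratins *Krt18* (authors' means of 9848 and 8953) and *Krt8* and by *Ttr* and *Alb*. However, *Apoa1* had means of only 39.4 and 38.9, and *Afp* and *Ahsg* had means under 11. Of the 5 macrophage markers 3 were listed, none with a mean above 29.8, none of the 4 endothelial markers was listed, and of the 6 stellate cell and fibroblast markers 2 were listed with a mean of at most 8.03. Of the 4 bile duct markers 3 were listed, *Krt19* at 2851 and 2753, *Krt7* at 1351 and 1617 and *Sox9* at 670 and 750. *Krt19* was thus above *Alb* (2151 and 1814). The means of the hepatocyte markers summed to 25884 and 24645, most of it from *Krt18* and *Krt8* (8292 and 7840). Whether these 2 keratins separate hepatocytes from bile duct cells was not tested. The means of the bile duct markers summed to 4871 and 5120, and the part of such differences in the results below was not tested. In bulk RNA, fewer cells of a type and less RNA per cell cannot be told apart.

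Glycolysis splits glucose into pyruvate in a chain of cytosolic enzymes, several of which exist as isozymes from separate genes with different tissue distributions. Adult hepatocytes are known for liver forms such as that of pyruvate kinase, whereas growing cells use the widely expressed forms. When oxygen is sufficient, prolyl hydroxylases mark the alpha subunits of hypoxia-inducible factor (HIF) for destruction. When it is not, the alpha subunits pair with ARNT and bind hypoxia response elements, whose core reads ACGTG or GCGTG, near genes of glycolysis, angiogenesis, mitophagy and collagen modification.

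These 2 cores were searched on both strands in the RefSeq promoters of the genes (build GRCm38.p6, 250 bases before to 50 bases after each start, 300 bases in all). Of the 38 genes, 33 had at least 1 promoter in the table used, 50 promoters in all, and *Bnip3l*, *Ndrg1*, *Epas1*, *Plod2* and *Lox* had none. A core was present in 38 of the 50 promoters (76.0%), in comparison with 43.8% of all 32851 promoters and 61.0% of the 11629 promoters of genes listed in both tables. These 11629 promoters were found by gene symbol and belong to 9064 genes, in comparison with the 13259 genes in both tables. Listed genes with another symbol in RefSeq are missing from them. ACGTG alone was present in 26 of the 50 (52.0%), in comparison with 19.6% of all promoters and 25.2% of those of listed genes. Both cores contain CG, and the median GC content was 62.7% for the promoters of the set, 60.3% for those of listed genes and 52.7% for all promoters, and the part of base composition in these shares was not tested. By gene, 30 of the 33 (90.9%) had a core in at least 1 promoter, in comparison with 46.7% of all 27025 genes with a promoter searched. The other 3 were *Gpi1*, *Tpi1* and *Eno2*. The share by gene was not taken for listed genes. A gene with more promoters has more places for a core, and the 33 genes had 50 promoters, the 27025 genes 32851. A match is a description of these letters and not a site of binding, and ACGTG also overlaps the E-box CACGTG, to which other factors bind.

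The cores below, shown with 10 bases on either side, are a selection from genes whose levels are described next. Further cores of some of these genes, and the cores of other genes, are not shown. *Ldha* had 9 matches and *Bnip3* 5, where a CACGTG counts on both strands. They are written 5' to 3' on the strand of the gene, with the core in capitals, as CACGT where ACGTG lies on the other strand. Positions are counted from the RefSeq start.
*Pgk1*, position -150, chrX:106186940-106186964, + strand: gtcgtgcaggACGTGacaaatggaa
*Pgk1*, position -131, chrX:106186959-106186983, + strand: atggaagtagCACGTctcactagtc
*Ldha*, position -47, chr7:46845747-46845771, + strand: cccagcctacACGTGggttcccgca
*Ldha*, position -34, chr7:46845760-46845784, + strand: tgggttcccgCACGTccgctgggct
*Pkm2* (listed as *Pkm* in RefSeq), position -75, chr9:59657142-59657166, + strand: ccgatccggtCACGTccgcgccgca
*Pgam1*, position -114, chr19:41911747-41911771, + strand: ctccttgcttACGTGcgctccgtga
*Hk2*, position -52, chr6:82774492-82774516, - strand: tgagcacatcCACGTcactgtccgg
*Pfkp*, position -23, chr13:6648780-6648804, - strand: ctcgggcgggGCGTGggcggctcct
*Egln3*, position -229, chr12:54204089-54204113, - strand: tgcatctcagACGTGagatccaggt
*Bnip3*, position -107, chr7:138909599-138909623, - strand: cacgcgccgcACGTGccacacgctc
*Car9*, position -18, chr4:43506998-43507022, + strand: atttccgatgCACGTacagcccgtc
The *Ldha* core at position -47 and the *Bnip3* core shown are parts of a CACGTG, and the other 9 shown are not. *Ldha* and *Car9* each carry ACGTG within 50 bases before the start. By level per kilobase in the table of shRNA 1 they ranked 8 and 37, and a relation between cores and levels was not tested.

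Levels of different genes were compared per exonic kilobase, as the authors' mean normalized count divided by the union of the exons in GENCODE M1. The 37 genes covered a wide range, and the glycolytic enzymes stood at its top. Together the 37 genes held 0.648% of the summed means of the table of shRNA 1 and 0.637% of those of the table of shRNA 2, of which the 15 enzymes accounted for 0.503% and 0.495%. Their median level was 68.5 per kilobase in the table of shRNA 1 and 71.2 in the table of shRNA 2, in comparison with 43.1 and 44.8 over all listed genes. Of the 37 genes, 27 lay above the middle of all genes in the table of shRNA 1, and 9 were in the top 10%, 8 of them enzymes and the other *Ndrg1*.

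*Pkm2*, the gene of the muscle-type pyruvate kinase that makes the last ATP of the pathway, had the highest level of the set. The gene (mm9, chr9:59504383-59527182, + strand) had authors' means of 7031 and 6999, or 2941 and 2927 per kilobase. Counts per gene cannot separate its M1 and M2 splice forms. The next 4 genes by level per kilobase in the table of shRNA 1 were *Pgk1* (1464 and 1633), which makes the first ATP of the pathway, *Pgam1* (1422 and 1242), a mutase of 3-phosphoglycerate, *Aldoa* (1304 and 1273), which splits fructose-1,6-bisphosphate, and *Tpi1* (1192 and 1201), which interconverts the triose phosphates. *Pgam1* and *Aldoa* changed places between the tables, so their order is not settled by these values. *Eno1*, *Gpi1* and *Ldha* followed with levels of 864, 716 and 703 per kilobase in the table of shRNA 1 and of 922, 788 and 680 in the table of shRNA 2. These 8 genes thus lay well apart from the other 7 enzymes, the highest of which was *Pfkl* at 130 and 161. Among the 8, the order below *Pkm2* also depended on the length used. With the longest coding transcript in the table of shRNA 1, *Aldoa* ranked 2, *Eno1* 3, *Pgk1* 4 and *Pgam1* 7.

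**Figure D1:**
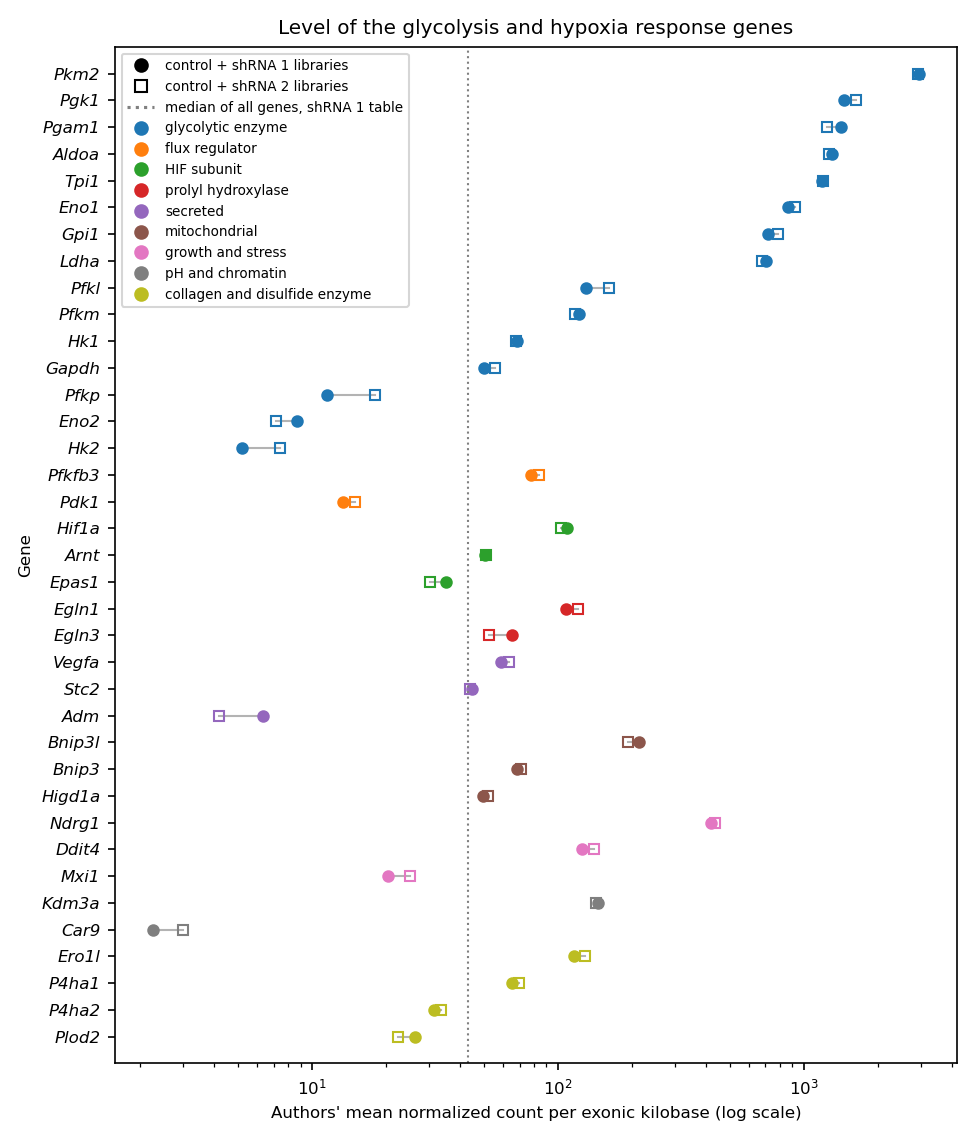
Authors' mean normalized count per exonic kilobase (log scale) of the 37 genes, grouped by role, as the mean over the control and shRNA 1 libraries (filled circles) and over the control and shRNA 2 libraries (open squares). The dotted line is the median of all genes in the table of shRNA 1, 43.1 per kilobase. A group of 8 enzymes lies between 680 and 2941, and *Car9*, *Adm*, *Hk2* and *Eno2* lie under 10 in both tables.

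The entry of glucose was carried mostly by *Hk1* transcripts. Hexokinase phosphorylates glucose, and of its 3 listed genes *Hk1*, the broadly expressed form, held 92.2% of the summed level per kilobase in the table of shRNA 1 and 89.2% in the table of shRNA 2. *Hk2*, the form known for induction by hypoxia and insulin, held 6.99% and 9.83%, with authors' means of 30.9 and 44.3. *Hkdc1* held under 1% in both tables. *Hk3* was listed in neither table.

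Phosphofructokinase, the committed step, was shared by 2 genes. *Pfkl*, the liver form (mm9, chr10:77449692-77472828, - strand), had authors' means of 572 and 709 and held 49.3% and 54.3% of the step. *Pfkm*, the muscle form, had 373 and 359 and held 46.3% and 39.6%. *Pfkp*, the platelet form, had 108 and 171 and held 4.35% and 6.11%. The step as a whole summed to 264 and 297 per kilobase, below the isomerase before it (*Gpi1*) and *Aldoa* after it.

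The form that growing cells use was also the main one for enolase and pyruvate kinase. *Eno1* held 88.7% and 90.6% of the enolase step, *Eno3*, the muscle form, 10.4% and 8.72%, and *Eno2*, the neuronal form, 0.897% and 0.70%. *Pkm2* held 95.5% and 94.4% of the pyruvate kinase step against 4.50% and 5.60% for *Pklr*, the liver and red cell form. *Pgam1* and *Ldha* were the only listed genes of their steps, since *Pgam2*, *Ldhb* and *Ldhc* were in neither table. Taking the length of the longest coding transcript in place of the union of exons gave the same leading gene at the hexokinase, phosphofructokinase, enolase and pyruvate kinase steps.

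**Figure D2:**
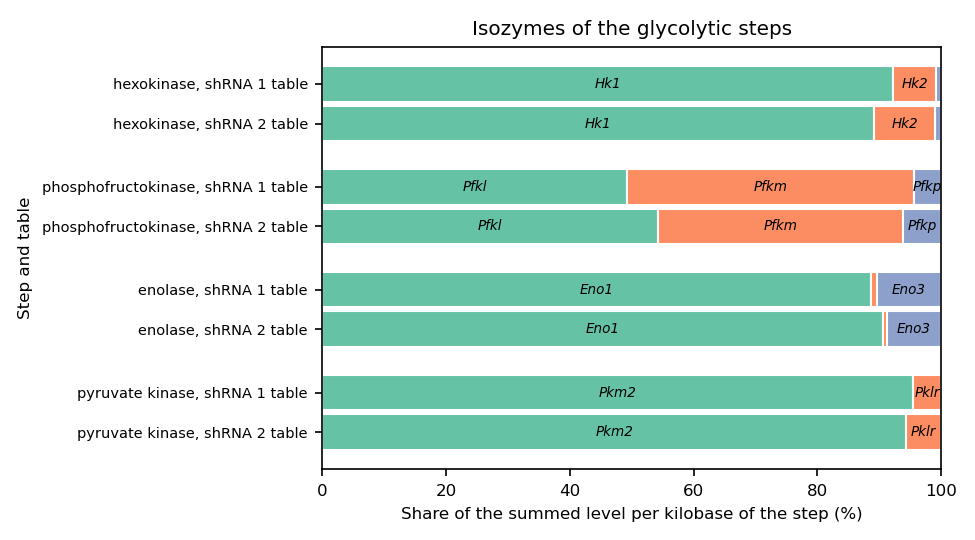
Share (%) of the summed level per exonic kilobase of each glycolytic step held by each of its genes, for hexokinase, phosphofructokinase, enolase and pyruvate kinase, in each table. 1 gene holds at least 88.7% of each bar except phosphofructokinase, where *Pfkl* and *Pfkm* hold 49.3% and 46.3% in the table of shRNA 1, and the narrow unlabelled segments are *Hkdc1* and *Eno2*.

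*Gapdh*, the gene between *Tpi1* and *Pgk1* in the pathway, was the exception among enzymes with no listed isozyme. The gene (mm9, chr6:125111871-125116485, - strand) had authors' means of only 113 and 125, or 49.96 and 55.6 per kilobase, while *Tpi1* and *Pgk1* stood at 1192 and 1464 in the table of shRNA 1. The authors kept uniquely mapped read pairs, which leaves out pairs that match an identical copy elsewhere in the genome equally well. Exact copies were therefore sought in NCBIM37, the assembly of mm9, for every 100-base window along a gene's longest coding transcript. For *Gapdh*, 1124 of 1321 windows (85.1%) had a copy outside the gene, spread over 84 other loci. With windows of 50 bases the share was 85.6% and the number of loci 233.

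Such copies were present for other enzymes too. *Pgk1* had copies of 89.8% of its windows at 3 other loci, *Pgam1* of 87.1% at 3, and *Eno1* of 59.0% at 4. All 3 nevertheless ranked among the 6 highest levels of the set by the union of exons. By the longest coding transcript *Pgam1* ranked 7 in the table of shRNA 1. Beyond the enzymes, the transcript of *Ero1l* had copies of 39.2% of its windows, *Bnip3* of 28.8%, *Bnip3l* of 20.0% and *Higd1a* of 11.6%. Of the 38 genes, 26 had no copied window of 100 bases. The levels of *Gapdh*, *Pgk1*, *Pgam1* and *Eno1* are thus those of the reads that could be placed, and how much of the transcripts of these genes was lost was not tested. Read length is not given in the sources used here, and longer reads or a second mate in unique sequence would allow more of them to be placed.

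**Figure D3:**
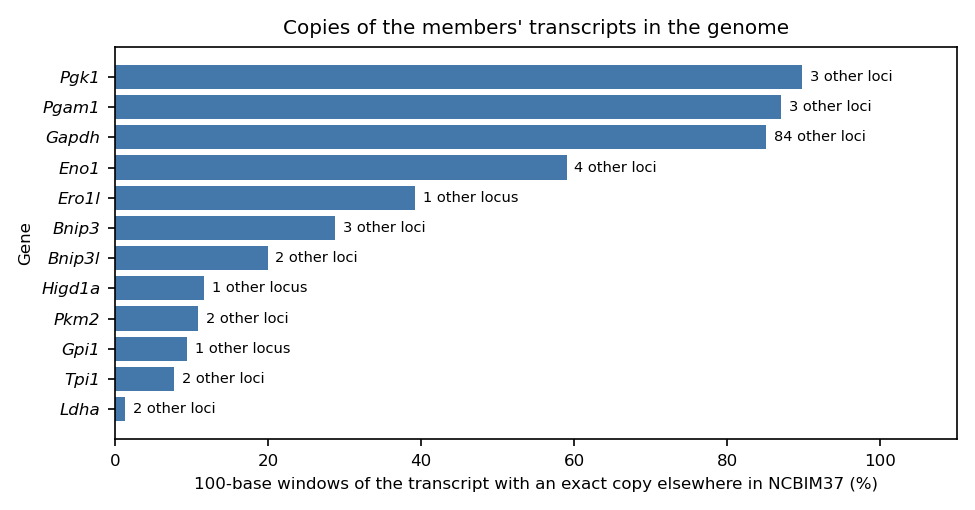
Share (%) of the 100-base windows along each longest coding transcript that occur letter for letter outside the gene in NCBIM37, with the number of other loci beside each bar, for the 12 genes with at least 1 such window. *Pgk1*, *Pgam1* and *Gapdh* exceed 85%, but only *Gapdh* has copies at 84 loci.

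The 2 regulators of flux differed in level. *Pfkfb3*, whose product makes the fructose-2,6-bisphosphate that activates phosphofructokinase, had authors' means of 548 and 591, or 78.0 and 84.0 per kilobase. *Pdk1*, whose product restrains the entry of pyruvate into mitochondria, had 104 and 117, or 13.4 and 15.0 per kilobase.

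Among the 3 HIF subunits of the set, *Hif1a* was the highest. The gene (mm9, chr12:75002362-75048517, + strand) had levels of 109 and 103 per kilobase. *Arnt*, the partner of both alpha subunits, had 50.7 and 51.1, and *Epas1*, which encodes HIF-2alpha, had 35.2 and 30.2. The order *Hif1a*, *Arnt*, *Epas1* was the same in both tables. Of the prolyl hydroxylases, *Egln1*, known as the main oxygen sensor, had 108 and 121 per kilobase, and *Egln3*, known as a HIF target itself, had 65.0 and 52.6.

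The known targets of HIF outside glycolysis ranged over 2 orders of magnitude. Of those in the set, *Ndrg1*, a stress-responsive gene linked to differentiation, was the highest with authors' means of 2775 and 2871, or 421 and 435 per kilobase. The mitophagy receptors *Bnip3l* (214 and 194 per kilobase) and *Bnip3* (68.2 and 71.2) and the mitochondrial protein gene *Higd1a* (49.8 and 52.2) were above the median of all genes in both tables. So were *Kdm3a*, a histone H3 lysine 9 demethylase (145 and 143), *Ddit4*, an inhibitor of mTORC1 (126 and 140), and *Ero1l*, an oxidase that makes disulfide bonds in the endoplasmic reticulum (116 and 129). The secreted factor *Vegfa*, which drives angiogenesis, had 59.1 and 63.2 per kilobase, and *Stc2*, a secreted glycoprotein, had 44.9 and 43.9. Of the collagen-modifying enzymes, the prolyl hydroxylase subunits *P4ha1* (65.1 and 69.5) and *P4ha2* (31.5 and 33.4) and the lysyl hydroxylase *Plod2* (26.3 and 22.4) spanned the median of all genes, with only *P4ha1* above it. *Mxi1*, an antagonist of MYC, had 20.5 and 25.1.

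The lowest means before division by length were those of *Adm* and *Car9*, and *Car9* was also the lowest per kilobase in both tables. *Adm*, which encodes the vasodilator adrenomedullin, had authors' means of 8.80 and 5.81, or 6.34 and 4.19 per kilobase. *Car9*, a carbonic anhydrase of the cell surface often used as a marker of hypoxia, had 5.22 and 6.92, or 2.27 and 3.00 per kilobase. At such means a few reads per library decide the value.

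The 2 tables also allow the hairpins to be compared, in a limited way. If both means hold the same control libraries at the same scale, a gene whose mean is higher in 1 table was higher with that hairpin. The means of the table of shRNA 1 were lower by a median of 0.07 in log2 over the 7757 genes whose means reached 100 in each table, and ratios were centred on this value. The shared controls draw the ratio towards 1, so under this centring it understates the fold between the hairpin groups themselves. With no value per library it has no error, and it was read against its spread over all genes, which had an SD of 0.16 in log2 for the 7853 genes with an average mean of at least 100, taken after the means of the table of shRNA 2 were scaled by the centring value, 0.30 for the 3711 genes between 10 and 100 and 0.46 for the 1695 genes below 10.

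The set as a whole was not shifted between the tables. The median log2 ratio of the 37 genes was 0.01, in comparison with -0.01 over all 13259 genes, with 19 genes above 0 and 18 below, and for 19 genes (51.4%) it was within 0.1 of 0, in comparison with 45.9% of all genes. A log2 ratio above 0.25, a ratio of 1.19, was found for 6 genes (16.2%), in comparison with 9.8% of all genes. A log2 ratio below -0.25 was found for 3 genes (8.11%), in comparison with 10.1% of all genes. In either direction the share was 24.3% for the set and 19.9% for all genes, close to each other. Among genes with an average mean of at least 100, 4 of the 31 in the set were past 0.25, in comparison with 9.13% of all such genes. Of these 4, 3 were above 0.25, in comparison with 5.14% of all genes of this class, and 1 was below -0.25, in comparison with 3.99%. Of the 4 genes with an average mean between 10 and 100, *Eno2* and *Plod2* were above 0.25 (12.5% of all genes of this class) and *Hk2* was below -0.25 (15.4%). Both genes with an average mean under 10 were past it, *Adm* above (25.4%) and *Car9* below (27.2%), and 52.6% of all genes of this class were past it in either direction.

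The genes with a higher mean in the table of shRNA 1 were *Adm*, *Egln3*, *Eno2*, *Plod2*, *Epas1* and *Pgam1*. *Egln3* (mm9, chr12:55279968-55304847, - strand) had authors' means of 173 and 140 and a log2 ratio of 0.37, a ratio of 1.30 between the tables after centring. *Epas1* had means of 187 and 160 and a log2 ratio of 0.29. *Pgam1* had 2604 and 2273 and a log2 ratio of 0.26. The other 3 were in the classes under 100, *Plod2* at the edge of its class and only through the scaling, and the spread over genes is wider there: *Plod2* with means of 110 and 93.7 (log2 ratio 0.30), *Eno2* with 41.1 and 33.5 (0.36) and *Adm* with 8.80 and 5.81 (0.67). For *Eno2* and *Adm*, whose log2 ratios were above 0.36, the spread between genes of the same class had an SD of 0.30 and 0.46.

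The genes with a lower mean in the table of shRNA 1 were *Pfkp*, *Hk2* and *Car9*. *Pfkp* (mm9, chr13:6579014-6648023, - strand) had the log2 ratio farthest from 0 among the members with a mean above 100, at -0.59, with authors' means of 108 and 171. After centring, the ratio between the tables was thus 0.663. *Hk2* (mm9, chr6:82675019-82724448, - strand) had means of 30.9 and 44.3 and a log2 ratio of -0.45. *Car9* had 5.22 and 6.92 and a log2 ratio of -0.34, within the SD of 0.46 of genes with means below 10. *Pfkl*, with a log2 ratio of -0.24, and *Mxi1*, with -0.22, lay just inside the threshold.

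Apart from *Pgam1*, the most abundant enzymes showed little of this, and so did *Gapdh*. The log2 ratios of *Pkm2* (0.07), *Tpi1* (0.06), *Aldoa* (0.10), *Ldha* (0.12), *Eno1* (-0.03), *Gpi1* (-0.07), *Pgk1* (-0.09) and *Gapdh* (-0.09) all lay within the SD of 0.16 for genes of this level. Within the phosphofructokinase step the genes pointed in different directions, with *Pfkm* at 0.12 and *Pfkl* and *Pfkp* at -0.24 and -0.59, and within the hexokinase step *Hk1* was at 0.09 and *Hk2* at -0.45. The HIF targets did not move as a block either. *Bnip3* (0.01), *Ndrg1* (0.02), *Vegfa* (-0.03) and *P4ha2* (-0.02) were near 0 while *Bnip3l* was at 0.21, and the 3 HIF subunits *Hif1a* (0.15), *Epas1* (0.29) and *Arnt* (0.06) were above 0, although *Arnt* was at -0.01 without centring and only *Epas1* lay outside the SD of 0.16.

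**Figure D4:**
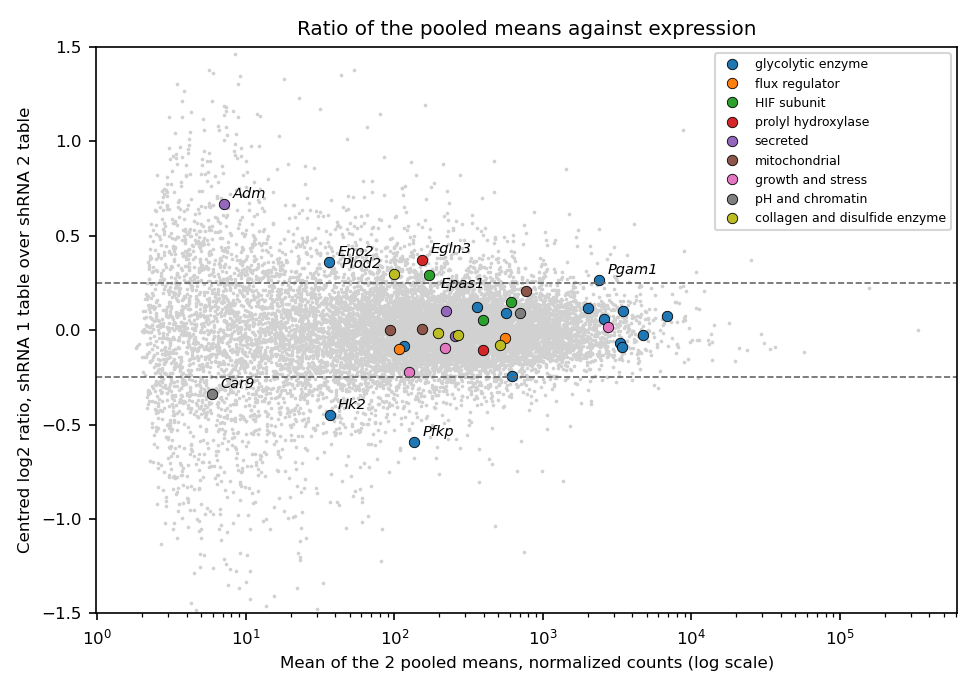
Centred log2 ratio of the authors' mean in the table of shRNA 1 over that in the table of shRNA 2, against the average of these means (log scale), for the 37 genes by role and for all genes (grey; 28 genes lie outside the plotted range of 1.5). The dashed lines mark 0.25 in either direction, and the 9 named genes lie beyond them.

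Other genes of the pathway were taken from a list of 30. Of these, 25 were in both tables, 3 in 1 table and 2 in neither. Their median log2 ratio was -0.01, with 3 of the 25 genes above 0.25 (9.8% of all genes) and 2 below -0.25 (10.1%). *Pfkfb2*, which encodes another enzyme that makes fructose-2,6-bisphosphate, had authors' means of 1055 and 717 and a log2 ratio of 0.63. *Slc2a2*, the glucose transporter of the liver, had 731 and 977 and -0.35, and *Slc2a1*, the widely expressed glucose transporter, had 406 and 351 and 0.28. The others past the threshold were *Car12* (0.38) and *Pfkfb4* (-0.44). Genes of oxygen sensing lay nearer to 0, with *Egln2* at 0.00, *Hif1an*, the asparaginyl hydroxylase of HIF, at -0.01, *Vhl*, the ubiquitin ligase subunit that removes HIF, at -0.17, and *Hif3a* at 0.18. Per kilobase *Hif3a* had a level of 257 and 238, above all 3 HIF subunits of the set.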

How the data were processed

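PolyA-enriched, strand-specific libraries were sequenced, and the authors trimmed reads, aligned them to mm9 by TopHat2 and retained unique concordant alignments. The submitters' processing notes name HTSeq for counting and DESeq2 (version 1.8.2). The deposited tables give, for each gene, the mean of the counts divided by size factors over the control libraries and those of 1 hairpin, a normalized signal and not a raw count, which was the only column used. Their other columns hold the authors' comparison of each hairpin with the control (log2 fold change, standard error, statistic, p-value and adjusted p-value), and were not used here. The 13643 gene identifiers all matched GENCODE M1. Groups were taken from sample titles. The descriptions of 2 control libraries name tables of further hairpins, which were not analysed here.

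Levels were divided by exonic kilobases (union of exons, or the longest coding transcript as an alternative). Ratios of the 2 means were centred on the median of genes with a mean of at least 100, and 0.25 was the threshold. The genes named were taken from the 38 members, their isozymes, 30 other pathway genes, *Srrm2* and marker genes, and some genes of these lists are not reported here. Members, lists and thresholds were chosen with earlier results of these data known. Copies were sought by exact matching of windows on both strands. This search and the promoter background of listed genes were added after seeing the data. Python 3.11.15, numpy 2.4.6, pandas 2.3.3 and matplotlib 3.10.9 were used.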

Additional observations from a re-analysis of the deposited data

How the results depend on the processing

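No value was available per library, so no replicate was left out. No paired analysis was possible because each mean pools the libraries of 2 groups. The median level of the 37 genes was 68.5 per kilobase with the union of exons and 107.6 with the longest coding transcript, which is never longer. The same 10 genes were the highest with both lengths, although not in the same order. The number of genes with a higher mean in the table of shRNA 1 was 6 at a log2 ratio of 0.25, 1 at 0.4 (4.25% of all genes), 3 among genes whose means reached 100 in each table (4.82%) and 3 without centring (6.68%). The number with a lower mean was 3, and became 5 at a threshold of 0.15 (19.5% of all genes), 1 among genes whose means reached 100 in each table (3.76%) and 5 without centring (15.4%). *Pgam1*, *Epas1* and *Plod2* were no longer past 0.25 without centring, at 0.20, 0.22 and 0.23, whereas *Pfkl* and *Mxi1* then passed it at -0.31 and -0.29. Leaving out the centring moved every log2 ratio by 0.07 and the other centrings by less, so no gene past 0.25 could change direction. Counting ACGTG alone, 22 of the 33 genes with a promoter (66.7%) had a core in place of 30, in comparison with 21.8% of all 27025 genes. With windows of 50 bases, a length chosen after seeing the data, 14 genes in place of 26 had no copied window, and 5 in place of 4 had copies of over 50% of their windows.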
